A study of Homo sapiens with 24 samples.

Results

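The genes described here were 9 hormone receptors and transcription factors of luminal breast epithelium (ESR1, PGR, FOXA1, GATA3, SPDEF, TFAP2A, TFAP2C, GRHL2 and ELF3), taken by symbol from the 18889 gene rows of the normalized RNA-Seq table, where each had exactly 1 row. Their expression was compared between low and high glucose in 3 human breast cancer cell lines that the labels call ER positive, and between those lines. The lines were HCC1500, MDA-MB-175 and ZR-75-30, each kept in T25 flasks for 48 hours at either 5 mM glucose (called low, the control) or 25 mM glucose (called high, a model of hyperglycemia). Each of the 6 groups had 4 replicates, for 24 samples in all. The study's general culture methods give serum-free medium after conditioning in low glucose, and the labels name no osmotic control for these cultures. Each group consisted of flasks of 1 established line, so the p-values below measure the spread between those flasks, and a difference between lines is a difference between these 3 lines only.

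The luminal cells of the mammary duct respond to ovarian hormones through estrogen receptor alpha (ESR1) and progesterone receptor (PGR), nuclear receptors that bind DNA once they have bound hormone. FOXA1, a pioneer factor that opens chromatin, and GATA3, a zinc finger factor required for luminal differentiation, act with the estrogen receptor at its enhancers, and PGR is itself an estrogen-induced gene. The AP-2 factors (TFAP2A and TFAP2C), the grainyhead factor GRHL2 and the epithelium-specific ETS factors SPDEF and ELF3 support luminal and epithelial gene expression.

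Values are normalized read counts as deposited, and log2 changes are differences of log2(value + 1) between high and low glucose unless lines are named. The samples held 9140024 to 17998819 recovered reads, and 3 reads, used here as the detection floor, were worth 0.953 to 2.29 on the scale of the values, for counting error only. In HCC1500 the depths of the conditions did not overlap, with 13190982 to 17998819 reads at low and 9423472 to 12140912 at high glucose. TXNIP, a glucose-induced gene used to check the labels, was higher in all 4 high glucose cultures of each line (log2 change 1.02 in HCC1500, 0.76 in ZR-75-30 and 0.39 in MDA-MB-175). Of 9 luminal epithelial markers all were detected in every group, although E-cadherin (CDH1) averaged only 55.6 in ZR-75-30 at low glucose against 6498 in MDA-MB-175 and 8223 in HCC1500. The summed level of 8 basal and myoepithelial markers with a row was 29.4 to 232 per sample, against 23472 to 79427 for the luminal markers, and that of 9 stromal and blood cell markers was 87.0 to 380.

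One culture stood apart. Replicate 3 of HCC1500 at high glucose correlated with the rest of its group at a mean Pearson r of 0.944 over 13310 genes, and the other 23 samples with theirs at 0.990 or more. Its distance from the group exceeded 1 log2 unit for 23.9% of genes, a share that was at most 1.74% elsewhere. All HCC1500 results are therefore given with and without this culture.

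The promoter of ELF3 is shown because ELF3 was the member that rose in every line, and because its single RefSeq start is preceded by a core promoter motif. The 250 bases before its RefSeq transcription start (GRCh38.p14, plus strand, chr1:202010337-202010586) are printed 5′ to 3′, with the TATA box in capitals.
ELF3: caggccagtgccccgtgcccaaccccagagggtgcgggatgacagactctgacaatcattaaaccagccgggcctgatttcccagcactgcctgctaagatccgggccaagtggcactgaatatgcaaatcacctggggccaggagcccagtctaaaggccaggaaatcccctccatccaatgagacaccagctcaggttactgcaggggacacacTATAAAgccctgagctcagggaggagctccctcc
The motif TATAAA, searched on the gene's strand, lay 34 to 29 bases before the start. It occurred in 6.80% of 35116 RefSeq promoter windows of the same length. Both strands of this window were also searched for 6 sequences bound by the families of the members, and none had an exact match. The GATA sequence AGATAA occurred in 9.17% of all windows and the FOXA sequence TGTTTAC in 2.98%. The AP-2 sequence GCCNNNGGC occurred in 19.8%, the ETS sequence CCGGAA in 14.5% and the grainyhead sequence AACCGGTT in 0.117%. The palindromic estrogen response element with a spacer of 3 free bases occurred in 0.0399%. The windows of SPDEF and FOXA1, which also have a single RefSeq window each, held none of these sequences. Of the 2 TFAP2A windows 1 held TATAAA, 30 to 25 bases before its start.

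The first question was how much of each factor the lines expressed in the control condition. At low glucose the receptors differed most between the lines and FOXA1 and GRHL2 least. ESR1 (ENSG00000091831, GRCh37 chromosome 6, 151977826 to 152450754, plus strand) was detected in all 24 samples, with low glucose means of 3178 ± 36.1 in HCC1500, 618 ± 20.3 in ZR-75-30 and 335 ± 3.59 in MDA-MB-175 (SD, n = 4). HCC1500 thus had 9.49-fold as much ESR1 transcript as MDA-MB-175 and 5.14-fold as much as ZR-75-30, with no overlap between lines. The log2 differences were -3.24 ± 0.03 for MDA-MB-175 against HCC1500, -2.36 ± 0.03 for ZR-75-30 against HCC1500 and -0.88 ± 0.03 for MDA-MB-175 against ZR-75-30 (SE; limma adjusted p at most 1.24e-12).

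PGR (ENSG00000082175, chromosome 11, 100900355 to 101000544, minus strand) was expressed in HCC1500 and not detectably in MDA-MB-175. The 4 low glucose cultures of HCC1500 had values of 624, 650, 657 and 689. In MDA-MB-175 the values were 0.4, 0.7, 0 and 0 at low glucose, from 0 or 1 read, and 0 in all 4 cultures at high glucose. ZR-75-30 had 1 read in each low glucose culture, and 0 to 10 reads and values of up to 4.25 at high glucose. Against the mean floor of each group, PGR at low glucose was at least 406-fold higher in HCC1500 than in MDA-MB-175 and at least 356-fold higher than in ZR-75-30. PGR shares 737 exon bases with an antisense transcript, and since use of strand in counting is not given in the sources used here, reads of the pair cannot be told apart.

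FOXA1 (ENSG00000129514, chromosome 14, 38058757 to 38065264, minus strand) varied by only 1.27-fold between lines at low glucose. ZR-75-30 had a mean of 2853 ± 70.8, HCC1500 of 2723 ± 63.3 and MDA-MB-175 of 2253 ± 87.2. MDA-MB-175 was below both other lines, and the difference between ZR-75-30 and HCC1500 did not pass the test (0.07 ± 0.03, limma adjusted p = 0.0709). The order of the latter pair depended on scaling, with a log2 difference of -0.29 after rescaling to CPM (reads divided by a fixed share of the sample's total) and 0.21 after median-of-ratios rescaling.

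GRHL2 (ENSG00000083307, chromosome 8, 102504667 to 102681954, plus strand) was as even, with 1264 ± 24.3 in HCC1500, 1189 ± 43.4 in ZR-75-30 and 1091 ± 14.7 in MDA-MB-175, a range of 1.16-fold. All 3 pairs passed the test as deposited (limma adjusted p at most 0.0179). The sign of 2 of these small differences changed with scaling, and MDA-MB-175 stayed below HCC1500 under each scaling. MDA-MB-175 exceeded ZR-75-30 by 0.11 after rescaling to CPM, and ZR-75-30 exceeded HCC1500 by 0.06 after median-of-ratios rescaling.

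GATA3 (ENSG00000107485, chromosome 10, 8087341 to 8117161, plus strand) rose in level from MDA-MB-175 (1329 ± 78.8) to ZR-75-30 (1931 ± 42.3) and HCC1500 (3571 ± 70.1), a range of 2.69-fold with no overlap. TFAP2A (ENSG00000137203, chromosome 6, 10393419 to 10419892, minus strand) had the same order, at 297 ± 11.6, 437 ± 15.7 and 697 ± 19.0, a range of 2.35-fold. TFAP2A shares 1379 exon bases with antisense genes, so its reads may be mixed with theirs.

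TFAP2C (ENSG00000087510, chromosome 20, 55204362 to 55214339, plus strand) was highest in HCC1500, at 2091 ± 77.6. This was 4.43-fold the mean in MDA-MB-175 (472 ± 19.4) and 7.05-fold that in ZR-75-30 (297 ± 18.3). The related TFAP2B had the opposite distribution, with a mean of 1036 in MDA-MB-175, one of 709 in ZR-75-30 and 0.096, under the floor, in HCC1500.

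The ETS factors departed from this order. SPDEF (ENSG00000124664, chromosome 6, 34505579 to 34524110, minus strand) was highest in ZR-75-30, at 4012 ± 216, which was 2.38-fold the HCC1500 mean (1687 ± 93.4) and 2.61-fold the MDA-MB-175 mean (1535 ± 232). MDA-MB-175 and HCC1500 overlapped and did not differ by the test (-0.15 ± 0.09, limma adjusted p = 0.135). ELF3 (ENSG00000163435, chromosome 1, 201977073 to 201986311, plus strand) ran the other way, from 607 ± 32.7 in HCC1500 to 859 ± 22.3 in ZR-75-30 and 2059 ± 153 in MDA-MB-175, a range of 3.39-fold with no overlap. ELF3 shares 664 exon bases with an unnamed gene on its strand and 664 with ELF3-AS1 on the other, and its level is to that extent uncertain.

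By the test, 8 of 9 members differed between each pair of lines at low glucose. Of all genes, 73.1% differed between MDA-MB-175 and ZR-75-30, 80.6% between MDA-MB-175 and HCC1500 and 80.4% between ZR-75-30 and HCC1500, so most genes differed as these 8 did. The median log2 difference over all genes was itself 0.18, -0.06 and -0.25 in these comparisons as deposited, and -0.25 became -0.39 after rescaling to CPM and -0.12 after median-of-ratios rescaling. The FOXA1 and GRHL2 differences between lines were between -0.34 and 0.07, and those of ESR1, PGR, TFAP2C, SPDEF and ELF3 between the highest and the lowest line were several times larger.

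**Figure D1:**
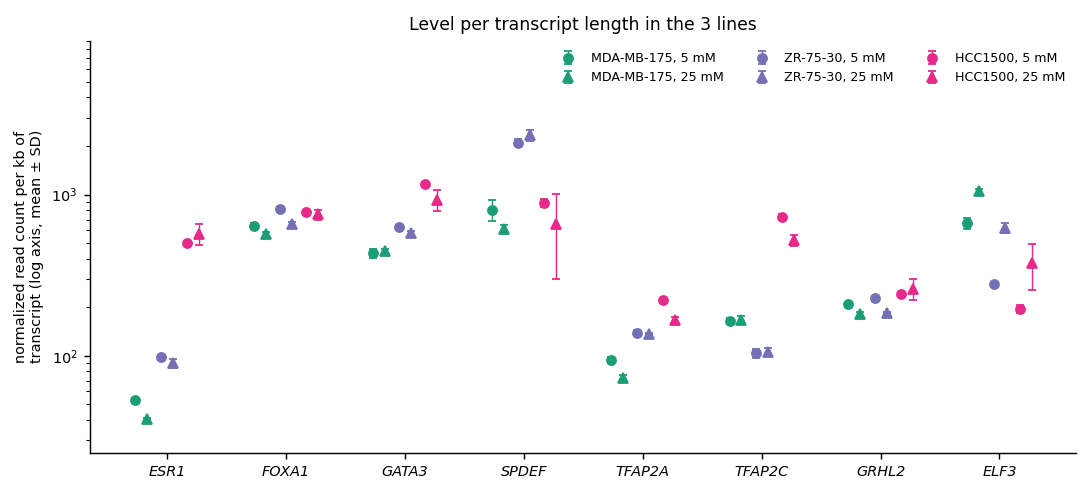
Level of 8 members per kb of their canonical transcript (log axis, normalized read count per kb, mean ± SD of 4 cultures) at 5 mM (circles) and 25 mM (triangles) glucose in the 3 lines. ESR1 runs from 52.9 in MDA-MB-175 to 502 in HCC1500 at low glucose, whereas FOXA1 stays between 642 and 813 and GRHL2 between 209 and 242. PGR is left out because it is at or near 0 in 2 lines.

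Divided by the length of the canonical transcript, the levels of the members can be set against each other. At low glucose the highest member was SPDEF in MDA-MB-175 (804 per kb) and ZR-75-30 (2101 per kb) and GATA3 in HCC1500 (1158 per kb). FOXA1 ranked in the first 3 of the 9 in each line. The order depended on the length used. Divided by all annotated exon bases, FOXA1 ranked 4 in HCC1500, and ELF3 in MDA-MB-175 went from 2 to 4. The highest member of each line and the ranks of ESR1 stayed the same. ESR1 ranked 5 of 9 in HCC1500 (502 per kb) and 8 of 9 in the other lines (97.7 per kb in ZR-75-30 and 52.9 per kb in MDA-MB-175). Among 17714 genes with a length and any reads, the ESR1 level per kb exceeded 63.0% of them in MDA-MB-175, 76.1% of them in ZR-75-30 and 95.6% of them in HCC1500, and FOXA1 was above at least 96.1% in each.

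The main question was whether high glucose changed these genes. In MDA-MB-175, 6 of the 8 members tested changed, 5 downward (ESR1, FOXA1, SPDEF, TFAP2A and GRHL2) and 1 upward (ELF3). Of all 17029 genes tested in this line, 25.7% changed, 11.9% upward and 13.7% downward, and the median log2 change was -0.02 against -0.19 for the 8 members. PGR had too few reads to be tested.

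ESR1 in MDA-MB-175 had values of 335, 338, 337 and 330 at low glucose and 255, 257, 263 and 256 at high glucose. Every high glucose culture was below every low glucose culture, and the mean fell by 23.0% (log2 change -0.38 ± 0.05, SE; limma adjusted p = 2.67e-05). TFAP2A fell by the same amount, from 297 ± 11.6 to 228 ± 10.6 (SD, n = 4), also without overlap (-0.38 ± 0.06, adjusted p = 0.000119).

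SPDEF in MDA-MB-175 had 1697, 1577, 1670 and 1195 at low glucose and 1214, 1234, 1111 and 1118 at high glucose. Low glucose replicate 4 lay within the high glucose range, and the other 3 low glucose cultures lay above it. The log2 change was -0.38 ± 0.08 (adjusted p = 0.00326), and the call was lost without a variance trend (0.0602) or with all 24 samples in one model (0.257), which also ended the call of GRHL2 (0.0874). GRHL2 (from 1091 to 949) and FOXA1 (from 2253 to 2001) fell by smaller amounts without overlap (-0.20 ± 0.04, adjusted p = 0.00138, and -0.17 ± 0.04, adjusted p = 0.0056). GATA3 and TFAP2C changed by 0.05 ± 0.05 and 0.02 ± 0.05, which did not pass (adjusted p = 0.51 and 0.861).

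In ZR-75-30, 5 of 9 members changed, 3 downward (FOXA1, GATA3 and GRHL2) and 2 upward (SPDEF and ELF3). Of 15834 genes, 46.0% changed in this line, 23.4% upward and 22.7% downward, with a median of 0.01 against -0.02 for the members. FOXA1 had 2812, 2789, 2861 and 2949 at low glucose and 2323, 2187, 2355 and 2312 at high glucose. The groups were well separated and the mean fell by 19.6% (-0.31 ± 0.04, adjusted p = 8.22e-07). GRHL2 fell by as much, from 1189 ± 43.4 to 957 ± 14.3 (-0.31 ± 0.04, adjusted p = 1.81e-06).

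GATA3 fell slightly in ZR-75-30, from 1931 ± 42.3 to 1785 ± 40.5, without overlap (-0.11 ± 0.03, adjusted p = 0.0117). SPDEF had values of 4111, 4137, 4112 and 3689 at low and 4669, 4636, 4669 and 3958 at high glucose. Replicate 4 was the lowest culture in both conditions, and the groups overlapped through high glucose replicate 4 (0.16 ± 0.05, adjusted p = 0.0178). The GATA3 and SPDEF calls were lost when the variance trend was left out (adjusted p = 0.0535 and 0.122) or when all 24 samples were fitted in one model (0.271 and 0.635). The SPDEF call was also lost without low glucose replicate 4 (0.0641) and without high glucose replicate 1, 2 or 3 (0.051 to 0.0583).

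ESR1 in ZR-75-30 averaged 618 at low and 570 at high glucose with overlap, a log2 change of -0.12 ± 0.05 that just missed the threshold (adjusted p = 0.0553). It passed with edgeR on whole reads (adjusted p = 0.0446), after rescaling to CPM (0.0185) and without high glucose replicate 1 (0.0337) or 4 (0.0175). TFAP2A (-0.02 ± 0.04) and TFAP2C (0.03 ± 0.06) did not pass (adjusted p = 0.719 and 0.67). PGR stayed near the floor, and its log2(value + 1) change of 0.84 ± 0.47 rested on 4 reads at low and 19 at high glucose (adjusted p = 0.153, and 0.00995 without high glucose replicate 4, which had 0 reads).

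In HCC1500, 3 of 9 members changed with all 8 cultures, against 20.5% of 16361 genes (7.46% upward and 13.0% downward). TFAP2A and TFAP2C fell and ELF3 rose. TFAP2C had values of 2097, 2194, 2062 and 2010 at low glucose and 1388, 1473, 1667 and 1460 at high glucose, a decrease without overlap (-0.48 ± 0.08, adjusted p = 0.00394). TFAP2A went from 697 ± 19.0 to 525 ± 21.3, also without overlap (-0.41 ± 0.07, adjusted p = 0.00419). These were -0.54 ± 0.03 and -0.41 ± 0.04 without replicate 3.

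The other 6 members did not pass with all cultures and equal weights in the test used here. Each passed with sample weights, which let limma count a deviating culture less (adjusted p at most 0.0208), and each passed without replicate 3, when 4 of the 9 were higher and 5 lower. Then 58.5% of 16235 genes passed, 20.9% upward and 37.7% downward. ESR1 had 3180, 3133, 3179 and 3221 at low glucose and 3837, 3962, 2796 and 3870 at high glucose. The value of 2796 was replicate 3, below every low glucose culture, and the other 3 were above them. The log2 change was 0.17 ± 0.12 (adjusted p = 0.354), and 0.29 ± 0.02 without replicate 3 (adjusted p = 7.81e-09).

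PGR in HCC1500 followed ESR1, with 624, 650, 657 and 689 at low glucose and 817, 879, 389 and 792 at high glucose. Again replicate 3 alone was below the low glucose range. The change was 0.07 ± 0.24 (adjusted p = 0.878), and 0.34 ± 0.04 without it (1.29e-06). GRHL2 changed by 0.10 ± 0.12 and by 0.21 ± 0.03 without it (adjusted p = 0.614 and 7.11e-06).

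SPDEF had the widest gap. Its low glucose values in HCC1500 were 1614, 1793, 1603 and 1736, and its high glucose values were 925, 887, 2269 and 922. Replicate 3 was above all low glucose cultures, and the other 3 were close to one another and well below. The change was -0.56 ± 0.28 (adjusted p = 0.206) and -0.89 ± 0.04 without replicate 3 (1e-12), when the mean fell by 46.0%. GATA3 changed by -0.33 ± 0.11 (adjusted p = 0.0665) and by -0.42 ± 0.04 without replicate 3 (1.89e-08), with no overlap in either case. With all cultures kept, GATA3 passed after rescaling to CPM (0.0044) or by median-of-ratios (0.0311), with edgeR (0.023), with DESeq2 (0.000724) and in one model of 24 samples (0.000954), and SPDEF passed in the last of these (0.0302).

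FOXA1 in HCC1500 changed by -0.05 ± 0.08 (adjusted p = 0.719) and by -0.10 ± 0.03 without replicate 3 (0.00408). The median log2 change over all genes was -0.06 with all cultures and -0.12 without replicate 3 as deposited. It was between -0.02 and -0.01 without replicate 3 after median-of-ratios rescaling or with edgeR or DESeq2, and under these 3 settings FOXA1 changed by 0.01 to 0.02 and did not pass. Relative to the median of all genes, the changes without replicate 3 were 0.42 for ESR1, 0.46 for PGR, 0.34 for GRHL2, 0.82 for ELF3, -0.30 for GATA3, -0.28 for TFAP2A, -0.41 for TFAP2C and -0.76 for SPDEF, so these 8 kept their direction, and FOXA1 was at 0.03.

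**Figure D2:**
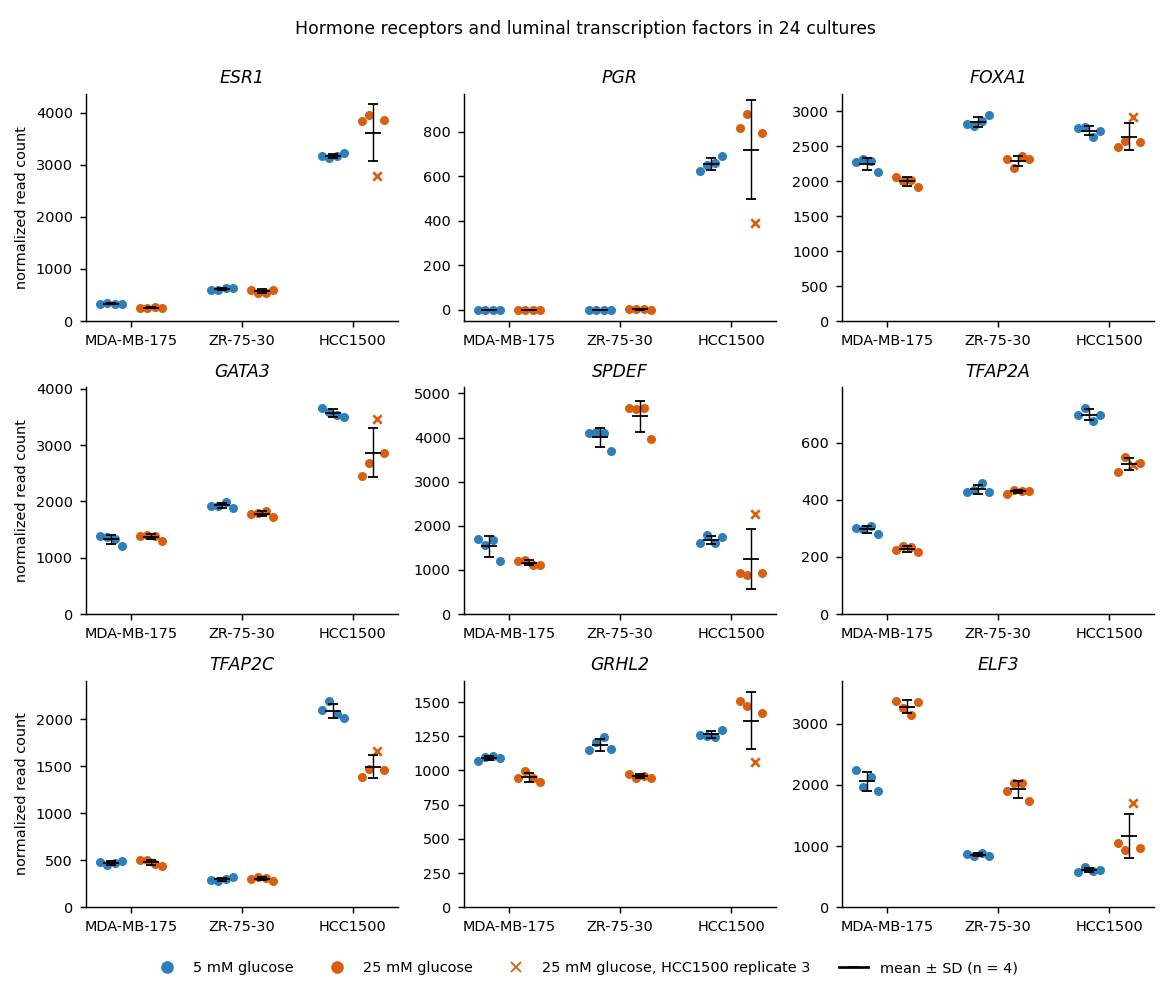
Normalized read count of each member in all 24 cultures (points) with mean ± SD of the 4 replicates (bars), at 5 mM (blue) and 25 mM glucose (orange). The cross is HCC1500 high glucose replicate 3. ELF3 is higher at 25 mM in every line, and in HCC1500 the cross lies on the far side of the low glucose cultures from the other 3 for ESR1, PGR, FOXA1, SPDEF and GRHL2.

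Replicate 3 departed from the other 3 cultures in a way that ran with transcript length. PGR, whose canonical transcript of 13037 bases is the longest of the 9, was 1.09 log2 units lower in replicate 3, and ESR1 (6327 bases) and GRHL2 (5232 bases) were 0.48 and 0.47 lower. SPDEF, the shortest at 1910 bases, was 1.32 log2 units higher. Members of similar length differed, with ELF3 (3104 bases) 0.80 higher and TFAP2A (3143 bases) at -0.01. The TFAP2A deviation exceeded that of only 36.2% of genes. Across 12934 genes the Spearman correlation of this deviation with canonical transcript length was -0.68 (genes are not independent replicates). Without replicate 3 a weaker trend of the glucose change with length remained in HCC1500, with median log2 changes of -0.20, -0.15 and -0.05 for transcripts under 2 kb, of 2 to 4 kb and of at least 4 kb, and a Spearman correlation of 0.14. In the same line ESR1, PGR and GRHL2, all over 4 kb, were the members other than ELF3 with higher values. The part of length and of the lower depth at high glucose in these changes was not tested. In MDA-MB-175 and ZR-75-30 the correlation was 0.09 and 0.00.

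**Figure D3:**
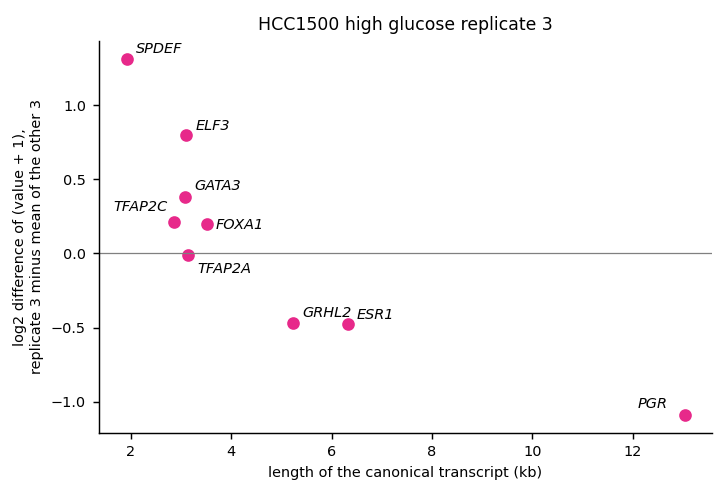
Difference of log2(value + 1) between HCC1500 high glucose replicate 3 and the mean of the other 3 high glucose cultures for each member, against the length of its canonical transcript in kb. The difference is 1.32 for SPDEF (1910 bases) and -1.09 for PGR (13037 bases), and at similar lengths it is 0.80 for ELF3 (3104 bases) and -0.01 for TFAP2A (3143 bases).

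With all cultures, ELF3 was the only one of the 9 genes to pass the test in the same direction in all 3 lines. Among the 14636 genes tested in each line, 1.81% were called higher in all 3 and 3.32% lower in all 3. Without HCC1500 high glucose replicate 3 these shares were 3.73% and 6.74% of 14572 genes. FOXA1 then also passed in all 3 lines, downward, though in HCC1500 its call depended on scaling and tool, as given above. In MDA-MB-175 the ELF3 values were 2241, 1969, 2125 and 1901 at low glucose and 3370, 3254, 3150 and 3350 at high glucose. In ZR-75-30 they were 871, 839, 885 and 842 at low and 1900, 2039, 2035 and 1735 at high glucose. In HCC1500 they were 581, 654, 589 and 605 at low and 1051, 935, 1706 and 963 at high glucose. No culture of one condition reached the range of the other in any line.

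The means of ELF3 rose 1.59-fold in MDA-MB-175, 2.24-fold in ZR-75-30 and 1.92-fold in HCC1500, or 1.62-fold without replicate 3. On the log2 scale these rises were 0.67 ± 0.05, 1.16 ± 0.05 and 0.89 ± 0.18 (limma adjusted p = 4.98e-08, 1.11e-12 and 0.0096), and 0.69 ± 0.05 in HCC1500 without replicate 3 (3.32e-10). Over 14 other settings with all samples kept, the change stayed between 0.65 and 0.70 in MDA-MB-175, between 1.12 and 1.18 in ZR-75-30 and between 0.69 and 0.96 in HCC1500, and passed in each. The TATA-containing promoter printed above precedes the single RefSeq start of this gene. Starts in other annotations were not examined, and no value here measures which start the cells used.

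**Figure D4:**
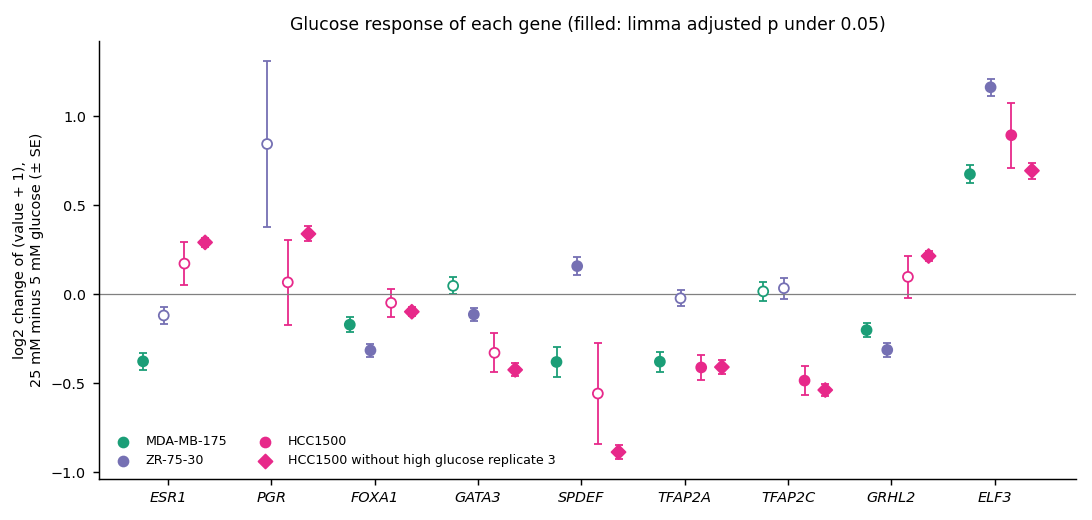
Log2 change of (value + 1) from 5 to 25 mM glucose with its SE for each member in the 3 lines, and in HCC1500 without replicate 3 (diamonds). Filled symbols passed limma at an adjusted p under 0.05, and ELF3 lies between 0.67 and 1.16 in the 3 lines.

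Whether the responses differed between lines was tested in one model of all samples. With all 24, the response differed for 6 of 9 members (ESR1, FOXA1, GATA3, TFAP2A, TFAP2C and GRHL2), against 29.3% of 18144 genes. Without HCC1500 high glucose replicate 3 it differed for 8, all but PGR, against 48.6% of genes. TFAP2A fell in MDA-MB-175 and HCC1500 and not measurably in ZR-75-30 (F test adjusted p = 0.000167), and its change differed between MDA-MB-175 and ZR-75-30 by -0.36 ± 0.07 (adjusted p = 0.00113) and between ZR-75-30 and HCC1500 by 0.39 ± 0.07 (0.000175).

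TFAP2C fell in HCC1500 alone, and its change there differed from that in MDA-MB-175 by 0.50 ± 0.09 and from that in ZR-75-30 by 0.52 ± 0.09 (adjusted p = 0.000319 and 0.00014). ESR1 went in opposite directions, lower in MDA-MB-175 and, without replicate 3, higher in HCC1500. The difference between these lines was -0.55 ± 0.11 with all samples and -0.67 ± 0.05 without replicate 3 (adjusted p = 0.000911 and 7.02e-10). GRHL2 fell in ZR-75-30 and MDA-MB-175 and had a positive change in HCC1500 that passed without replicate 3 or with sample weights, and the ZR-75-30 and HCC1500 changes differed by -0.41 ± 0.10 (0.0051).

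FOXA1 fell more in ZR-75-30 than it changed in HCC1500 (-0.27 ± 0.07, adjusted p = 0.00704), and the fall in ZR-75-30 did not differ from that in MDA-MB-175 with all samples (0.14 ± 0.07, 0.227, and 0.0197 without replicate 3). GATA3 changes differed between MDA-MB-175 and HCC1500 by 0.38 ± 0.10 (0.0108). For ELF3 the F test gave an adjusted p of 0.0906 with all samples and 9.54e-06 without replicate 3, when its rise in ZR-75-30 exceeded that in MDA-MB-175 by 0.49 ± 0.08 and that in HCC1500 by 0.47 ± 0.08. SPDEF went from 0.109 to 3.83e-07, with the ZR-75-30 change 1.04 ± 0.12 above that of HCC1500. With all samples rescaled to CPM, the calls for ESR1 and GRHL2 were lost (adjusted p = 0.0875 and 0.203) and those for SPDEF and ELF3 were gained (0.0149 and 0.00425). After median-of-ratios rescaling the GRHL2 call was lost (0.0555) and those for SPDEF (0.0476) and ELF3 (0.0143) were gained. ELF3 also passed with edgeR (0.0139) and DESeq2 (0.00368), and both passed with sample weights (3.74e-06 for ELF3 and 2.43e-08 for SPDEF). The PGR response passed with sample weights (0.0135) and without ZR-75-30 high glucose replicate 4 (0.0012).

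At high glucose the lines kept most of their order. HCC1500 had 14.0-fold as much ESR1 as MDA-MB-175 and 6.35-fold as much as ZR-75-30. SPDEF in ZR-75-30 reached 4483 ± 350, 3.83-fold the MDA-MB-175 mean. ELF3 still ran from HCC1500 (1164 ± 365) through ZR-75-30 (1928 ± 144) to MDA-MB-175 (3281 ± 101). The tests called 8, 8 and 9 members for MDA-MB-175 against ZR-75-30, MDA-MB-175 against HCC1500 and ZR-75-30 against HCC1500, against 61.0%, 69.4% and 70.4% of genes. Without replicate 3 they called 8, 9 and 9, against 75.8%, 78.9% and 78.9%. Between ZR-75-30 and HCC1500 the count was 7 after median-of-ratios rescaling, with edgeR and with DESeq2, against 70.8%, 70.7% and 70.6% of genes. Under these settings FOXA1 (-0.06 to -0.05) and TFAP2A (-0.16 to -0.14) did not pass. GRHL2 no longer differed between MDA-MB-175 and ZR-75-30 (949 and 957, -0.01 ± 0.10, adjusted p = 0.929). SPDEF did not differ between MDA-MB-175 and HCC1500 (0.03 ± 0.24, adjusted p = 0.923), and was 0.36 ± 0.06 higher in MDA-MB-175 without replicate 3 (3.75e-05).

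Genes with profiles most like each member were sought by the root mean square difference over the 24 samples, computed for 13310 genes. Each log2(value + 1) profile was first centered on its own mean over these samples. Differences between lines therefore entered the distance together with glucose changes, and a near gene need not share a glucose response. For ESR1 the nearest were SNTB1 (0.28) and ZSWIM5 (0.32), and for PGR C1orf173 and AGTR1 (both 0.69). FOXA1 lay nearest to DNAJA3 (0.092) and HNRNPUL1 (0.097), GRHL2 to TEX2 (0.084) and GLYR1 (0.086), and GATA3 to MRPL49 (0.126) and HSD17B4 (0.129). SPDEF was nearest to MGST3 (0.156), TFAP2A to EXOC2 (0.134), TFAP2C to ABHD3 (0.171) and ELF3 to CTSB (0.267), the gene of the lysosomal protease cathepsin B. The median gene was at 0.61 to 4.17 from a member, and among the 9 the closest pair was FOXA1 and GRHL2 (0.17). With HCC1500 high glucose replicate 3 left out, the nearest gene stayed first for SPDEF alone, and the others named here ranked between 1 and 6.

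The relatives of the members were then examined as lists. Their counts can be read against the shares of all genes called higher and lower, which were 11.9% and 13.7% (MDA-MB-175), 23.4% and 22.7% (ZR-75-30), and 7.46% and 13.0% for HCC1500 (20.9% and 37.7% without replicate 3). Of 16 family relatives, 12 had a row. In MDA-MB-175 1 rose and 4 fell of 12 tested, in ZR-75-30 3 rose and 4 fell, and in HCC1500 1 rose and 1 fell of 9 (3 and 2 without replicate 3). Each HCC1500 gene named from this and the following lists also passed without replicate 3. The median log2 changes were -0.32, -0.09 and 0.23. TFAP2B fell in both lines that express it, by 0.34 and 0.52 on the log2 scale (adjusted p = 0.000112 and 5.78e-08). ELF5, an ETS factor of the alveolar lineage, rose in MDA-MB-175 from 236 to 343 and was under the floor in the other lines. GATA2 rose in ZR-75-30 from 168 to 280, and GATA4 in HCC1500 from 18.7 to 32.8.

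Other nuclear receptors (31 of 35 with a row) had 12 higher and 1 lower of 30 tested in MDA-MB-175, 11 higher and 5 lower of 27 in ZR-75-30, and 7 higher and 2 lower of 30 in HCC1500, where without replicate 3 it was 12 higher and 11 lower of 29. NR1D1, the circadian repressor REV-ERB alpha, rose in each line by 1.51, 0.78 and 1.39. PPARG rose in MDA-MB-175 by 0.34 and NR4A2 in HCC1500 by 1.37. PPARD fell by 0.66 in ZR-75-30 and by 0.94 in HCC1500, VDR, the vitamin D receptor, by 0.71 in ZR-75-30, RARB by 0.71 in HCC1500 and NR2F2 by 0.22 in MDA-MB-175.

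Among coregulators of the estrogen receptor, 4 of 29 tested were higher and 2 lower in MDA-MB-175, and 4 of 28 were higher and 7 lower in ZR-75-30. In HCC1500 none of 29 passed limma with all samples, where 5 had an unadjusted p under 0.05, and 12 were higher and 6 lower without replicate 3. The coactivator NCOA3 rose by 0.27 and DDX5 by 0.17 in MDA-MB-175, where TRIM24 and NCOA2 fell by 0.31 and 0.24. In ZR-75-30 DDX17 rose by 0.36 and CREBBP by 0.20, and NCOA2 fell by 0.45 and SMARCA4 by 0.24.

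Among other luminal and epithelial transcription factors, 5 rose and 10 fell of 27 in MDA-MB-175, 9 rose and 9 fell in ZR-75-30, and 3 rose and 4 fell in HCC1500 (6 and 12 without replicate 3). BHLHE40 rose by 0.75 in MDA-MB-175 and 0.57 in ZR-75-30 and fell by 0.39 in HCC1500. KLF4 rose by 0.40 in MDA-MB-175 and 1.05 in HCC1500, where KLF5 rose by 0.91, and ZNF217 rose by 0.45 in ZR-75-30. MYB fell by 0.69 in MDA-MB-175 and 0.32 in HCC1500. The secretory pathway regulators CREB3L4 (by 0.59 in MDA-MB-175), CREB3L1 (by 0.55 in ZR-75-30) and XBP1 (by 0.47 in ZR-75-30, from 21862 to 15738) also fell.

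Estrogen-induced genes moved in both directions in each line. Of 29 tested in MDA-MB-175, where ESR1 fell, 9 were higher and 6 lower. In ZR-75-30 14 of 28 were higher and 5 lower, and in HCC1500 7 of 29 were higher and 5 lower, or 15 and 10 without replicate 3. The medians were 0.04, 0.12 and 0.31 (0.10 without replicate 3). In MDA-MB-175 AREG rose by 1.12 and ADCY9 by 0.62, and RET fell by 0.73 and IL6ST by 0.33. In ZR-75-30 IGFBP4 rose by 0.54 and GREB1, an estrogen receptor cofactor, by 0.58, whereas TFF1 fell from 1803 to 391 (by 2.20) and AGR2 from 11108 to 6573 (by 0.76). In HCC1500 the chemokine gene CXCL12 rose from 584 to 1413 (1.27 ± 0.07, adjusted p = 3.56e-05) and KCNK5 from 14.9 to 63.7, and ABCA3 and RET fell by 0.67 and 0.76.

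Of 17 genes of estrogen synthesis and inactivation, 7 rose and 2 fell in MDA-MB-175, 3 rose and 4 fell in ZR-75-30, and 3 rose and 3 fell in HCC1500 (4 and 6 without replicate 3). CYP1A1, which hydroxylates estradiol and is a target of the aryl hydrocarbon receptor, rose in every line. It went from 167 to 598 in MDA-MB-175, from 45.9 to 187 in HCC1500 and from 1.61 to 19.0 in ZR-75-30. The low glucose mean in ZR-75-30 was under the mean floor of that group (1.84). STS, the sulfatase that releases estrone, rose in MDA-MB-175 from 451 to 1019. HSD17B4, which oxidizes estradiol, fell in MDA-MB-175 by 0.13 and in HCC1500 by 0.58. SULT1A1 fell by 0.26 in ZR-75-30, and in HCC1500 HSD17B12 rose by 0.25 and UGT2B15 fell by 0.54.

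**Figure D5:**
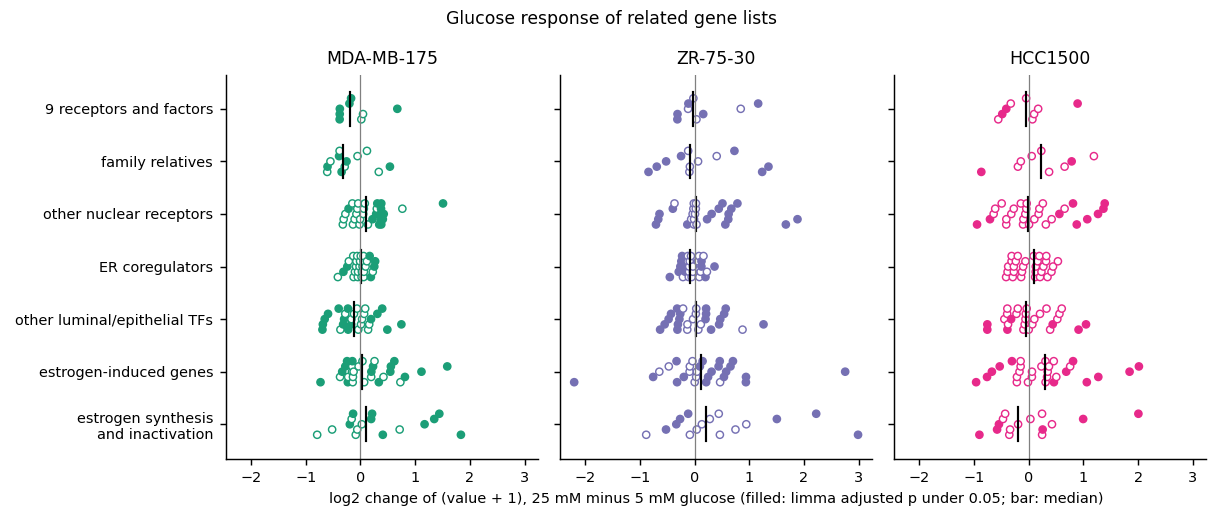
Log2 change of (value + 1) from 5 to 25 mM glucose of every tested gene in the 9 members and 6 related lists in each line (points, filled where limma's adjusted p was under 0.05), with the median of each list (bar). The list medians lie between -0.32 and 0.31, and single genes such as TFF1 in ZR-75-30 (-2.20) lie far from them.

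The lineage markers moved in the same samples. Of 9 luminal epithelial markers, 2 rose and 3 fell in MDA-MB-175, 1 rose and 5 fell in ZR-75-30, and 1 fell in HCC1500 (without replicate 3, 3 rose and 6 fell). Their summed level per culture was 65984 to 79427 (low glucose) and 71263 to 77195 (high glucose) in MDA-MB-175. It was 53003 to 58592 (low) and 38117 to 45107 (high) in ZR-75-30, where the ranges did not overlap. In HCC1500 it was 24901 to 26836 (low) and 23472 to 46375 (high), the highest being replicate 3. KRT19 fell by 0.30 in MDA-MB-175 and by 0.75 in ZR-75-30, KRT18 rose by 0.22 in MDA-MB-175 and fell by 0.40 in ZR-75-30, and CDH1 fell by 0.15 in MDA-MB-175 and 0.36 in HCC1500. EPCAM rose by 0.22 in ZR-75-30 and KRT7 by 0.18 in MDA-MB-175.

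Of the basal and myoepithelial markers, 1 of 7 rose in MDA-MB-175, 1 of 7 rose in ZR-75-30 and 1 of 5 rose in HCC1500, where TRIM29 fell without replicate 3. These were KRT17 in MDA-MB-175 (55.3 at low and 75.1 at high glucose), and ACTA2 in ZR-75-30 (6.57 and 26.7) and HCC1500 (5.72 and 13.4). Their summed level per culture was 161 to 207 (low glucose) and 218 to 232 (high) in MDA-MB-175, 61.1 to 85.9 (low) and 90.9 to 109 (high) in ZR-75-30, and 31.0 to 40.0 (low) and 29.4 to 37.9 (high) in HCC1500. Stromal and blood cell markers had 1 higher and 2 lower of 8 in MDA-MB-175 and 3 higher of 5 in HCC1500 (1 more lower without replicate 3). In ZR-75-30 limma called 0 of 3, with 1 at an unadjusted p under 0.05. LUM rose in both lines and CD34 and CD14 in HCC1500, COL1A2 and VWF fell in MDA-MB-175, and the high glucose means of these 5 genes in those lines were at most 58.7. Summed stromal marker levels overlapped between the conditions in MDA-MB-175 and HCC1500. They did not overlap in ZR-75-30 (109 to 127 at low and 87.0 to 103 at high glucose). The part of these markers in the changes of the 9 members was not tested, and in bulk RNA fewer cells of a kind and less RNA per cell cannot be told apart.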

How the data were processed

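RNA of 24 cultures was sequenced on an Illumina HiSeq. The deposited table holds a normalized signal per gene and sample, whose scaling the authors' labels do not state. In each column the values were whole multiples of what 1 read is worth (100% of values within 0.01 of a whole read), so the reads could be recovered. For tumors, the study's methods give trimming with Trimmomatic, alignment with TopHat to hg19 (Ensembl release 70 genes), DESeq2 and CPM by edgeR, and the submitters' processing notes list edgeR and hg38. Counter and strand are not given in the sources used here. Coordinates are GRCh37 (GENCODE release 44, lifted), in which 18183 IDs (96.3%) matched. Promoter sequences are RefSeq's on GRCh38.p14, found for 7 of the 9 genes.

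Changes within a line were tested on its 8 samples, differences between lines on the 12 samples of a condition and differences of responses on all 24. The test was limma (version 3.58.1, R 4.3.3) on log2(value + 1) with a variance trend and without covariates. To enter, a gene needed 0.5 or more in 4 or more of the samples fitted, and a call was an adjusted p (Benjamini-Hochberg, over all genes that entered) below 0.05. Other settings changed the pseudocount (0.1, 0.5 or 5), filter, scaling, variance prior, sample weights, replicate block, samples, threshold (0.3) or tool (edgeR 4.0.16 or DESeq2 1.42.0 on recovered reads). Fits without HCC1500 high glucose replicate 3 that also changed scaling, tool or block were added after seeing the data. In simulated data every gene had the same spread beyond counting noise and no culture deviated, unlike HCC1500 high glucose replicate 3. For MDA-MB-175 (17139 genes) the test found 100% of genes changed 2-fold and 86% of genes changed 1.5-fold. These shares were 98% and 87% for ZR-75-30, and 97% and 86% for HCC1500. Changes smaller than 1.5-fold, as many reported above are, were not simulated. For the differences of responses (18182 genes), the test found 83% of genes changed 2-fold and 54% of genes changed 1.5-fold, and 8.67% of simulated calls were false. No pair of replicates agreed within counting noise (chi-square per gene at least 1.83).

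The 9 genes, the lists and the tests were chosen with earlier results of these data known. From each list the text names, for each line and direction, the 2 genes with the smallest adjusted p and a mean of at least 10. The levels of CDH1, TFAP2B and ELF5 in other lines, and ACTA2, TRIM29 and CD14 in HCC1500, were added after their values were seen. List genes without a row, such as KRT5, KRT14 and PTPRC, were not analysed here, and some genes that the rule would name are not reported here.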

Additional observations from a re-analysis of the deposited data

Results flagged for a closer look

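With 54 groups of 4 samples examined, 8 held a sample far from the others by Dixon's criterion (the gap to the nearest sample, as a share of the range), where chance flags about 1 in 20 groups. In HCC1500 at high glucose these were ESR1 (gap 0.893 of the range), SPDEF (0.973) and ELF3 (0.850), each with replicate 3 as the far sample. SPDEF in ZR-75-30 was flagged at low (0.942) and high glucose (0.953), with replicate 4 lowest in both. The others were GATA3 in MDA-MB-175 at high glucose (0.914, replicate 4 low), TFAP2A in ZR-75-30 at high glucose (0.848, replicate 1 low) and PGR in ZR-75-30 at low glucose (0.925), where each culture had 1 read.

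The response to glucose differed between lines by the limma F test for 6 of the 9 genes. The adjusted p was 0.00169 for ESR1, 0.0183 for FOXA1, 0.0192 for GATA3, 0.000167 for TFAP2A, 0.000101 for TFAP2C and 0.0107 for GRHL2, and 29.3% of all genes passed the same test.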

How the results depend on the processing

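Direction and call were the same as reported for 2207 of 2353 single-gene values under another setting, and 32 lost the call, 87 gained it and 27 changed sign. The cause was not tested. After rescaling to CPM the sign changed for TFAP2C in MDA-MB-175 (-0.0032) and ZR-75-30 (-0.0040), PGR in HCC1500 (-0.0064), GRHL2 between MDA-MB-175 and ZR-75-30 at low (0.11) and high glucose (0.24), FOXA1 between ZR-75-30 and HCC1500 at low glucose (-0.29) and between MDA-MB-175 and ZR-75-30 at high glucose (0.057), and SPDEF between MDA-MB-175 and HCC1500 at high glucose (-0.037), and 5 members in place of 8 were called between MDA-MB-175 and ZR-75-30 at high glucose. Of all genes, 63.7% were called between MDA-MB-175 and ZR-75-30 at high glucose after rescaling to CPM, and 61.0% as deposited. FOXA1 in HCC1500 became 0.0052 after median-of-ratios rescaling and 0.0059 with DESeq2, and without high glucose replicate 3 it was 0.0213 with either and 0.0142 with edgeR. GRHL2 between ZR-75-30 and HCC1500 at low glucose became 0.082 with edgeR, 0.059 with DESeq2 and 0.057 after median-of-ratios rescaling.

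The count of members called in ZR-75-30 was 3 without a variance trend or with one model of 24 samples, against 5. In HCC1500, against 3, it was 9 with sample weights, 5 with one model of 24 samples and 5 at a threshold of 0.3. The share of all genes called under these settings is not given here. Without high glucose replicate 3 it was 9 after rescaling to CPM, 9 with the replicate block and 8 with edgeR, DESeq2 or median-of-ratios rescaling. In the main test without this culture, 58.5% of all genes were called. Leaving out each sample in turn gave 3 to 9 calls in HCC1500, with 9 only without replicate 3. It also gave -0.011 to 0.051 for TFAP2C in MDA-MB-175, -0.033 to 0.0029 for TFAP2A in ZR-75-30, -0.052 to 0.34 for PGR in HCC1500, and, at high glucose, -0.035 to 0.0055 for GRHL2 between MDA-MB-175 and ZR-75-30 and -0.094 to 0.36 for SPDEF between MDA-MB-175 and HCC1500.

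Whether the same replicate numbers in low and high glucose marked paired samples is not given in the labels, and the tests treated them as unpaired. Deviations of same-numbered samples correlated at a mean of 0.024 in HCC1500, 0.012 in ZR-75-30 and 0.036 in MDA-MB-175. With the replicate block, 6, 6 and 3 members were called in the 3 lines (ESR1 in ZR-75-30 was gained at an adjusted p of 0.0329), and the genes called went from 3350 to 1964 in HCC1500. PGR in MDA-MB-175 had too few reads to be tested.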
